A study of Homo sapiens with 8 samples.

Results

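The classical cadherins and the catenins of the adherens junction were followed in OVCA429, an established human ovarian carcinoma cell line, after depletion of GRHL2, a Grainyhead-like transcription factor of epithelial cells. The 10 genes were taken by name from a table of 57820 genes: 7 cadherins (CDH1, CDH2, CDH3, CDH4, CDH6, CDH11 and CDH13) and 3 catenins (CTNNA1, CTNNB1 and CTNND1). Each had a single row in the table, and the genes were chosen with earlier results of these data known. The shGRHL2 cells carried a stable short hairpin RNA against GRHL2, and the shLuc cells carried one against luciferase, which human cells do not carry. Both lines were kept under puromycin, so drug selection was common to both, and only 1 hairpin against GRHL2, in a single stable line, is described. Total RNA was sequenced after removal of ribosomal RNA, and expression was deposited as FPKM, the number of sequenced fragments scaled to transcript length and to the depth of the run.

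By the labels there were 4 samples of each line, but the sample descriptions carry a running number of the form used for sequencing lanes, and genes at 100 FPKM and above varied little within a line, with a median coefficient of variation of 2.79% in shGRHL2 and 2.72% in shLuc. Each line was therefore counted as 1 library read in 4 runs. SDs below therefore describe repeat sequencing of the same RNA. Variation among cultures was not measured, and no test was made. A gene was called higher or lower where the mean of log2(FPKM + 1) differed by 1 or more between libraries, a 2-fold limit, among the 15019 genes with a mean of at least 1 FPKM in at least 1 library (called the tested genes). Estimated depth was 9.95 to 10.2 M fragments per shGRHL2 run and 9.35 to 9.68 M per shLuc run. The mitochondrial ribosomal RNAs took 25.9% of fragments in shGRHL2 and 17.2% in shLuc, which lowers the FPKM of every other gene in shGRHL2 by comparison. GRHL2 itself was at 0.13, 0.15, 1.17 and 0.1 FPKM in shGRHL2 runs, against 31.5, 38.69, 33.35 and 31.98 in shLuc runs. The third shGRHL2 run stood apart for this gene. The shGRHL2 mean was 1.144% of the shLuc mean with that run and 0.374% without it.

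Classical cadherins are single-pass membrane proteins whose extracellular repeats bind calcium and pair with cadherins of the neighbouring cell. Their cytoplasmic tails bind p120-catenin (CTNND1), which holds the cadherin at the membrane, and β-catenin (CTNNB1), which recruits α-catenin (CTNNA1) and through it the actin cytoskeleton. E-cadherin (CDH1) is the cadherin of most epithelia, P-cadherin (CDH3) accompanies it in many of them, and N-cadherin (CDH2) is typical of neural and mesenchymal cells. In epithelial-mesenchymal transition (EMT) the replacement of E-cadherin by N-cadherin is known as the cadherin switch. β-catenin that is not bound to cadherins can also enter the nucleus and act with TCF/LEF factors.

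Upstream sequence was matched in RefSeq (GRCh38.p14) for 4 of the 10 genes: CDH2, CDH4, CTNNA1 and CTNNB1. The 250 bases before the annotated starts of CDH2, the most changed of these genes, and of CTNNB1, which stayed within the 2-fold limit, are given to show how differently their starts are built. They are written 5′ to 3′ on the strand of the gene, with each CG dinucleotide in capitals.

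CDH2, first start, chr18:28177131-28177380, minus strand: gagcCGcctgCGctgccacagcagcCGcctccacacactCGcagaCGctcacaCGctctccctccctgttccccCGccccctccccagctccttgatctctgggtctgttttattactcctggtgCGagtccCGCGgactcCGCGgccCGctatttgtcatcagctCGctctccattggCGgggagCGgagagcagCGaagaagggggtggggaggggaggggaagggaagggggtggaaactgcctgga

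CDH2, second start, chr18:28036642-28036891, minus strand: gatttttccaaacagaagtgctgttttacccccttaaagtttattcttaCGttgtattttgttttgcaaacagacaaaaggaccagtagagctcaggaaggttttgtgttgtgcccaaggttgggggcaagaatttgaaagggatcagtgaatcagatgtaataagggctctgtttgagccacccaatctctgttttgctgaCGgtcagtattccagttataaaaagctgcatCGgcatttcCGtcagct

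CTNNB1, chr3:41199255-41199504, plus strand: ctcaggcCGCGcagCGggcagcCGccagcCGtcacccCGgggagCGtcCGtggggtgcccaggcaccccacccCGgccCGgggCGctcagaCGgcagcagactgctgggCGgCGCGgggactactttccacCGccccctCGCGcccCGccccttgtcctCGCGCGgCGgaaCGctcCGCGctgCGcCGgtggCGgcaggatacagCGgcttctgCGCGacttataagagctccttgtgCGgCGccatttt

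The first CDH2 window held 17 CG dinucleotides and 66% G and C, the second CDH2 window held 4 and 42%, and the CTNNB1 window held 34 and 74.4%. The median of 35116 such windows was 11 CG dinucleotides and 58% G and C. None of these 3 windows held CACCTG, an E-box form bound by the ZEB and SNAI repressors, on either strand, a string present in 17.5% of all windows. Nor did they hold AACNNGTT, a string of the Grainyhead type that reads the same on both strands and was present in 3% of all windows. Among the other matched windows, 1 of CDH4 held CACCTG, on the opposite strand, from position -16 relative to the start, and 1 of CTNNA1 held AACNNGTT from position -164. A missing match says only that these letters were not in the window, and the FPKM values do not separate the starts of a gene.

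Of the 10 genes, 9 were tested, and 5 of these passed the 2-fold limit. CDH2, CDH6 and CDH13 were higher in shGRHL2, and CDH1 and CDH3 were lower. Across all tested genes 12.2% passed the limit, 4.97% higher (746 genes) and 7.24% lower (1087 genes). With the mitochondrial ribosomal RNAs left out of the scaling the split was 1088 higher and 992 lower. CDH4 and the 3 catenins stayed within the limit, and CDH11 was listed at 0 in all 8 runs. CDH2, CDH6 and CDH13 were tested only through their level in shGRHL2, and CDH1 only through its level in shLuc, so a difference was built into how these 4 were tested. In all 9 tested genes the runs of the 2 libraries did not overlap. This held for 51.6% of all tested genes, because runs of 1 library differ so little. The median difference was -0.16 over the 9 tested genes and -0.10 over all tested genes.

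**Figure D1:**
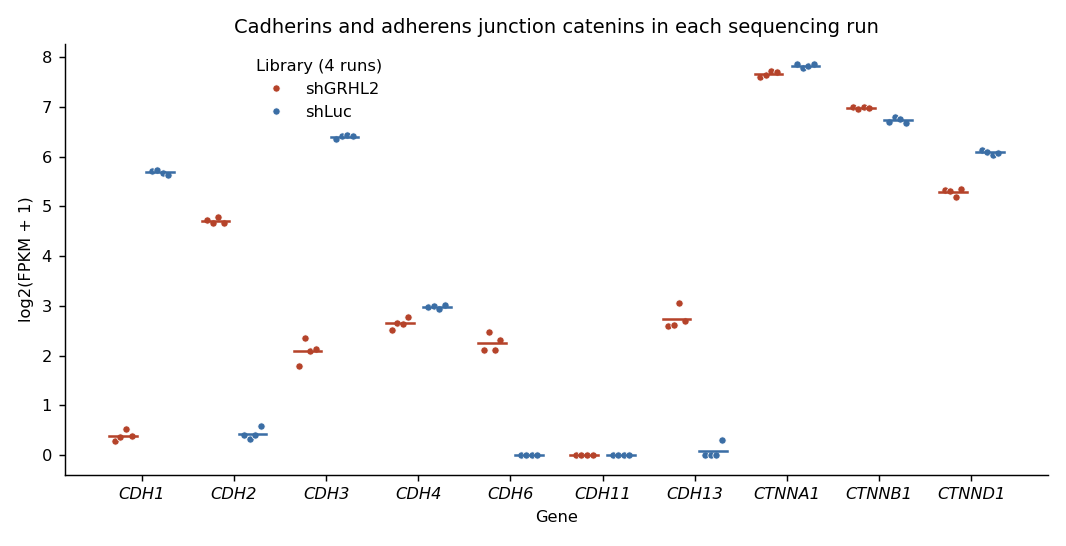
Level of each gene as log2(FPKM + 1) in the 4 runs of the shGRHL2 library (red, left) and of the shLuc library (blue, right), with short lines for the means. CDH1 and CDH3 are lower in shGRHL2 than in shLuc, CDH2, CDH6 and CDH13 are higher, and the 3 catenins at right differ by less than the 2-fold limit. In shGRHL2 the runs of CDH3 and CDH6 overlap.

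E-cadherin RNA was nearly absent from the shGRHL2 library. CDH1 (ENSG00000039068.14, GRCh37 chr16:68771195-68869440, plus strand) was at 0.22, 0.29, 0.44 and 0.3 FPKM in shGRHL2 runs, against 51.51, 51.69, 49.96 and 48.83 FPKM in shLuc runs. All 4 shGRHL2 runs were thus below 1 FPKM, and all 4 shLuc runs were near 50.5. The means were 0.313 ± 0.092 in shGRHL2 and 50.5 ± 1.36 in shLuc (SD, 4 runs each), a difference of -5.30 on the log2(FPKM + 1) scale. As a ratio of mean FPKM, CDH1 was 162-fold lower, with a 95% counting interval of 118 to 224 from about 40.7 estimated fragments in shGRHL2 and 6224 in shLuc. Such intervals are exact, cover counting error only and are approximate, because the transcript lengths behind the fragment estimates come from a source that is not named. What remained was 0.619% of the shLuc level, and 0.535% without the third shGRHL2 run, which was the highest for CDH1 as it was for GRHL2. For CDH1, unlike GRHL2, the spread between shGRHL2 runs was no larger than counting error. Among the tested genes CDH1 stood at percentile 2.15 of expression in shGRHL2 and 89.0 in shLuc. These are bulk libraries, in which fewer cells with CDH1 and less CDH1 RNA in each cell cannot be told apart.

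P-cadherin, the cadherin with the highest FPKM in the shLuc library, was also lower. CDH3 (ENSG00000062038.9, chr16:68670092-68761371, plus strand) was at 2.46, 4.14, 3.24 and 3.39 FPKM in shGRHL2 runs, against 80.55, 83.99, 85.23 and 84.14 in shLuc runs. Unlike CDH1, it kept a level above the tested minimum in every shGRHL2 run. The means were 3.31 ± 0.69 in shGRHL2 and 83.5 ± 2.03 in shLuc, a difference of -4.31, or 25.2-fold lower (counting interval 22.3 to 28.8). The counting intervals of CDH1 and CDH3 did not meet, and CDH3 exceeded CDH1 by 11.03 ± 2.83 times in shGRHL2 and by 1.65 ± 0.074 times in shLuc. The 2 genes are neighbours on the same strand, with 9823 bases from the end of CDH3 to the start of CDH1.

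N-cadherin showed the opposite pattern. CDH2 (ENSG00000170558.4, chr18:25512843-25757910, minus strand) was at 25.35, 24.47, 26.44 and 24.53 FPKM in shGRHL2 runs, against 0.32, 0.25, 0.32 and 0.51 in shLuc runs. In shLuc it therefore lay close to the range that CDH1 had in shGRHL2. The means were 25.2 ± 0.92 in shGRHL2 and 0.350 ± 0.11 in shLuc, a difference of 4.28, and the ratio was 72.0-fold (counting interval 54.0 to 98.7). CDH2 stood at percentile 80.1 of the tested genes in shGRHL2 and at 2.46 in shLuc. Set against CDH1 within a run, CDH2 had 85.4 ± 22.7 times its FPKM in shGRHL2 and 0.00697 ± 0.0024 times in shLuc. The exchange was not one of equal amounts, since CDH2 in shGRHL2 had a smaller FPKM than CDH1 had in shLuc.

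R-cadherin, the other type I cadherin with a clear level in both libraries, changed little. CDH4 (ENSG00000179242.11, chr20:59827317-60515673, plus strand) was at 4.71, 5.27, 5.23 and 5.88 FPKM in shGRHL2 runs, against 6.84, 7, 6.66 and 7.05 in shLuc runs. The difference of -0.33 was within the 2-fold limit, although the highest shGRHL2 run was below the lowest shLuc run. It was -0.20 with the mitochondrial ribosomal RNAs left out of the scaling. The fifth type I gene, CDH15 (M-cadherin of muscle), averaged 0.05 FPKM in shGRHL2 and 0.03 in shLuc and was not tested.

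The other cadherins among the 10 genes were silent or nearly so in shLuc. K-cadherin, CDH6 (ENSG00000113361.8, chr5:31193793-31329253, plus strand), a type II cadherin known from the developing kidney, was at 3.35, 4.56, 3.3 and 3.95 FPKM in shGRHL2 runs and was listed at 0 in all 4 shLuc runs. The shGRHL2 mean was 3.79 ± 0.59, and no fold is given against 0. T-cadherin, CDH13 (ENSG00000140945.11, chr16:82660570-83834245, plus strand), is held in the membrane by a lipid anchor and has no tail for catenins. It was at 5.06, 5.15, 7.38 and 5.49 FPKM in shGRHL2 runs, against 0, 0, 0 and 0.24 in shLuc runs. The single shLuc value above 0 stood for about 2.53 fragments in the whole library, so the ratio of 96.2 has a counting interval of 27.6 to 399. The difference was 2.67 on the log2(FPKM + 1) scale. OB-cadherin, CDH11 (ENSG00000140937.9, chr16:64977656-65160015, minus strand), a cadherin of fibroblasts and bone-forming cells, was listed at 0 in all 8 runs, so not every cadherin linked to mesenchymal cells was higher in shGRHL2.

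Among the wider cadherin family, 3 of 13 type II genes were tested and 2 were higher, both tested only through their level in shGRHL2, which fixed the direction. Beside CDH6 this was CDH5 (VE-cadherin, of endothelial junctions), at 11.44, 9.85, 11.71 and 10.37 FPKM in shGRHL2 runs, against 0.03, 0.12, 0 and 0 in shLuc runs. The third, CDH24, averaged 2.78 FPKM in shGRHL2 and 1.43 in shLuc, within the limit. CDH7, CDH8, CDH9 and CDH22 were at 0 in all runs, as CDH11 was. Other endothelial markers were read beside CDH5. Of the 6 with a single row, 3 were tested and all 3 were higher (CDH5 itself, KDR and TIE1). Each was tested only through its level in shGRHL2, so the filter fixed the direction, though not the 2-fold call. The 6 summed to 93.8 to 98.9 FPKM in shGRHL2 and 0.72 to 1.07 in shLuc. Almost all of this sum was TIE1, an endothelial receptor kinase, at 84.7 FPKM in shGRHL2 and 0.723 in shLuc, while VWF averaged 0.153 in shGRHL2 and 0.0575 in shLuc, and ERG averaged 0.42 in shGRHL2 and was listed at 0 in shLuc. KDR, another endothelial receptor, averaged 1.27 FPKM in shGRHL2 and was listed at 0 in shLuc. CLDN5, not tested, went the other way, at 0.0325 FPKM in shGRHL2 and 0.125 in shLuc, with overlapping runs. The part of such genes in the CDH5 value was not tested.

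The summed FPKM of the 7 cadherins was 41.15, 43.88, 46.03 and 43.54 in shGRHL2 runs, against 139.22, 142.93, 142.17 and 140.77 in shLuc runs. The total was thus 43.7 ± 2.00 in shGRHL2 and 141 ± 1.63 in shLuc, or 3.24-fold lower, a gap many times the spread between runs. The cadherins with less FPKM in shGRHL2 (CDH1, CDH3 and CDH4) together had 132 FPKM less, and those with more (CDH2, CDH6 and CDH13) had 34.3 FPKM more, so the gain came to 26.0% of the loss. Summing all 23 CDH genes of the type I, type II and other lists gave 58.5 ± 2.605 in shGRHL2 and 143 ± 1.81 in shLuc, 2.44-fold lower. The difference from the narrower sum is mainly CDH5.

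The make-up of that sum was almost completely exchanged. CDH1 and CDH3 together made up 8.27 ± 1.48% of the 7-cadherin FPKM in shGRHL2 and 94.8 ± 0.27% in shLuc. CDH2, CDH6 and CDH13 together made up 79.6 ± 2.04% in shGRHL2 and 0.291 ± 0.16% in shLuc. CDH1 alone had 0.710 ± 0.18% in shGRHL2 and 35.7 ± 1.04% in shLuc, and CDH3 had 7.56 ± 1.45% in shGRHL2 and 59.1 ± 0.97% in shLuc. CDH2 alone had 57.8 ± 2.64% in shGRHL2 and 0.248 ± 0.080% in shLuc. These shares leave out CDH5, at a mean of 10.8 FPKM in shGRHL2, above each of the 7 except CDH2, and 0.0375 in shLuc. With CDH5 counted, the CDH2 share in shGRHL2 would be smaller. CDH4 took a larger share in shGRHL2, 12.1 ± 0.99% against 4.88 ± 0.14% in shLuc, at a lower FPKM, because the total around it was smaller. The largest single share of FPKM was that of CDH2 in shGRHL2 and that of CDH3 in shLuc. By estimated fragments the shLuc order turned, with 6224 for CDH1 and 6052 for CDH3.

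**Figure D2:**
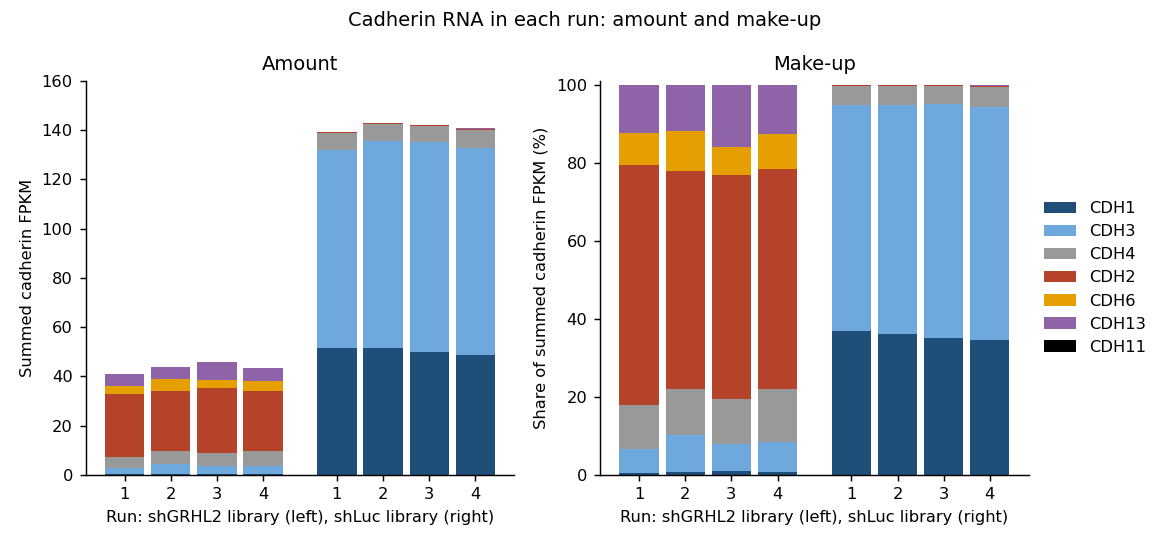
Summed FPKM of the 7 cadherins in each run (left panel) and the share of each gene in that sum, in percent (right panel), with the 4 shGRHL2 runs left of the 4 shLuc runs. The shGRHL2 bars reach 41.15 to 46.03 FPKM and are mostly CDH2, and the shLuc bars reach 139.22 to 142.93 FPKM and are mostly CDH3 and CDH1. CDH11 adds nothing to any bar.

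Of the 3 catenins 0 passed the limit. Across all tested genes 12.2% passed it, so this count alone does not set the catenins apart. α-catenin, CTNNA1 (ENSG00000044115.16, chr5:137946656-138270723, plus strand), was at 192.81, 197.21, 210.45 and 207.88 FPKM in shGRHL2 runs, against 232.55, 218.41, 224.22 and 230.14 in shLuc runs. It was the most abundant of the 10 genes in both libraries, and its difference of -0.16 shrank to -0.00 with the mitochondrial ribosomal RNAs left out of the scaling. β-catenin, CTNNB1 (ENSG00000168036.12, chr3:41236232-41301587, plus strand), was at 125.87, 123.73, 126.93 and 124.62 FPKM in shGRHL2 runs, against 101.94, 110.6, 106.34 and 101.67 in shLuc runs. It was the only catenin of the 3 with more FPKM in shGRHL2, by a ratio of 1.19 and a difference of 0.25, and the difference lay between 0.14 and 0.41 under the other scalings.

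p120-catenin came nearest to the limit. CTNND1 (ENSG00000198561.8, chr11:57520715-57587018, plus strand) was at 38.89, 38.41, 35.33 and 39.56 FPKM in shGRHL2 runs, against 68.71, 67.49, 64.19 and 66.68 in shLuc runs. The means of 38.05 ± 1.87 in shGRHL2 and 66.8 ± 1.91 in shLuc differed by -0.80, a 1.75-fold lower FPKM, and by -0.64 to -0.90 under the other scalings. In FPKM, CTNND1 ranked above every cadherin in shGRHL2 but below CDH3 in shLuc. The values of these genes rest on dividing fragments among many transcripts, 44 for CTNNA1, 15 for CTNNB1 and 40 for CTNND1 in the table, and p120-catenin is known for isoforms that gene-level FPKM does not separate. Adding the 3 catenins gave 365 ± 8.08 FPKM in shGRHL2 and 398 ± 3.65 in shLuc.

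Relative to its binding partner, cadherin RNA was therefore much scarcer in shGRHL2. The 7 cadherins summed to 0.348 ± 0.015 times the FPKM of CTNNB1 in shGRHL2 and to 1.34 ± 0.040 times in shLuc, a ratio 3.86-fold lower that does not depend on the scaling between libraries. Without CDH13, which does not bind catenins, the values were 0.302 ± 0.011 in shGRHL2 and 1.34 ± 0.039 in shLuc, 4.45-fold lower. The gap was smaller over all 23 CDH genes, a set with CDH5 and CDH13 that was chosen after seeing the data. There the values were 0.467 ± 0.018 in shGRHL2 and 1.36 ± 0.039 in shLuc, 2.92-fold lower. Against CTNND1, itself lower, the ratio of the 7 cadherins was 1.15 ± 0.11 in shGRHL2 and 2.12 ± 0.077 in shLuc. The catenins also shifted among themselves: CTNNA1 had 1.61 ± 0.063 times the FPKM of CTNNB1 in shGRHL2 and 2.16 ± 0.14 times in shLuc, and CTNND1 had 0.304 ± 0.017 times in shGRHL2 and 0.636 ± 0.034 times in shLuc. These are ratios of RNA and say nothing of the amount of protein or of its place in the cell.

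**Figure D3:**
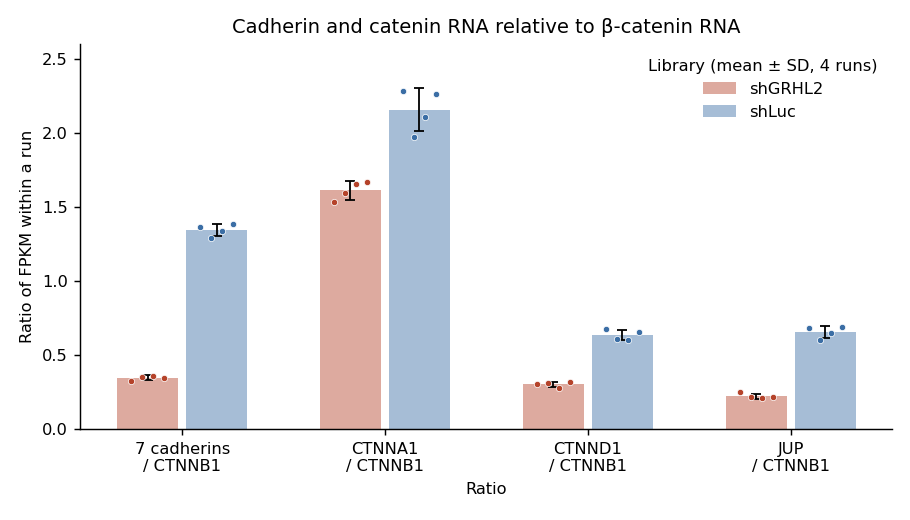
FPKM of the 7 cadherins together, CTNNA1, CTNND1 and JUP, each divided by that of CTNNB1 in the same run, with bars for the mean, error bars for the SD over 4 runs and points for the runs, shGRHL2 left of shLuc. All 4 ratios are lower in shGRHL2, the cadherin ratio most, at 0.348 against 1.34 in shLuc.

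Across all tested genes 12.2% passed the limit. Of 10 catenin genes in all, 7 were tested and 1 passed it, with a median difference of -0.25. This was JUP (plakoglobin), the close relative of β-catenin that serves both adherens junctions and desmosomes. It averaged 28.1 ± 2.19 FPKM in shGRHL2 and 68.8 ± 1.42 in shLuc, a difference of -1.27, and its FPKM relative to CTNNB1 was 0.224 ± 0.017 in shGRHL2 and 0.656 ± 0.039 in shLuc. PKP4, of the p120 family, averaged 21.2 FPKM in shGRHL2 and 37.4 in shLuc, within the limit and close to CTNND1 in its difference (-0.79 for PKP4).

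Genes for proteins that tie the cadherin complex to actin and to microtubules were mostly within the limit, as tested genes in general were. Of 19 such genes 18 were tested, 0 were higher and 3 were lower, with a median difference of -0.42. Across all tested genes 4.97% were higher and 7.24% lower. LIMA1 (EPLIN), which binds α-catenin and bundles actin, averaged 65.1 ± 2.403 FPKM in shGRHL2 and 224 ± 2.166 in shLuc. SHROOM3, an organiser of apical actomyosin, averaged 8.58 ± 1.00 FPKM in shGRHL2 and 31.3 ± 1.47 in shLuc. MLLT4 (afadin), which joins nectins to actin, averaged 25.8 ± 1.53 FPKM in shGRHL2 and 60.1 ± 2.09 in shLuc.

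Of the 20 genes for cadherin cleavage, phosphorylation and turnover, 19 were tested and 0 passed the limit in either direction, with a median difference of -0.24. Across all tested genes 12.2% passed it. ADAM15, a membrane metalloproteinase and the gene of this list with the highest mean, had 104 ± 2.93 FPKM in shGRHL2 and 130 ± 4.91 in shLuc. Among 25 protocadherins and other large cadherins, 9 were tested, 0 were higher and 2 were lower, where 4.97% of all tested genes were higher and 7.24% lower. PCDH1, a protocadherin of epithelia, averaged 14.2 ± 0.22 FPKM in shGRHL2 and 45.0 ± 0.89 in shLuc. CLSTN2, a calsyntenin tested only through shLuc, averaged 0.0925 ± 0.062 FPKM in shGRHL2 and 2.08 ± 0.12 in shLuc. FAT4, a giant cadherin, went the other way and was just within the limit, at 5.93 ± 0.30 FPKM in shGRHL2 and 2.53 ± 0.099 in shLuc, a difference of 0.97 and a ratio of 2.34 (counting interval 2.20 to 2.49). The median of that list was -0.08, near that of all tested genes.

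**Figure D4:**
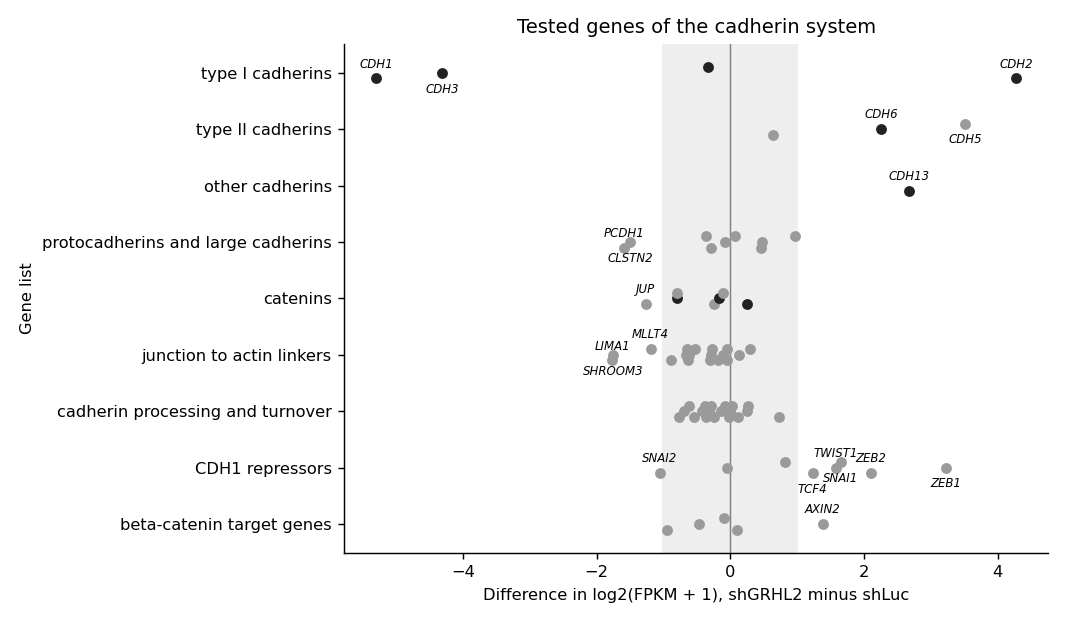
Difference in log2(FPKM + 1), shGRHL2 minus shLuc, of each tested gene in 9 lists around the cadherins, with the 10 genes of the text in black where tested, other genes in grey, and the 2-fold limit as a shaded band. Genes past the band are named. Cadherins lie far out on both sides, from CDH1 at -5.30 to CDH2 at 4.28, while catenins, linkers and turnover genes gather in or near the band.

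The known transcriptional repressors of CDH1, 8 genes that act at E-boxes, were all tested. Of these 5 were higher in shGRHL2, 1 was lower and 2 were within the limit, with a median difference of 1.41. ZEB1, ZEB2, SNAI1 and TWIST2 were tested only through their level in shGRHL2, so the count and the median lean on 4 genes whose direction the filter fixed. ZEB1 was at 13.36, 12.04, 12.27 and 14.11 FPKM in shGRHL2 runs, against 0.79, 0.33, 0.46 and 0.4 in shLuc runs, and led the list with a difference of 3.23. ZEB2 averaged 6.23 ± 1.22 FPKM in shGRHL2 and 0.680 ± 0.25 in shLuc, and SNAI1 (Snail) averaged 2.49 ± 0.50 in shGRHL2 and 0.103 ± 0.089 in shLuc. TWIST1 averaged 6.05 ± 0.91 FPKM in shGRHL2 and 1.398 ± 0.64 in shLuc, and TCF4 (E2-2) averaged 5.5 ± 0.75 in shGRHL2 and 1.76 ± 0.27 in shLuc. TCF3, with the highest FPKM of the 8 in both libraries, hardly differed. It averaged 29.3 ± 2.85 FPKM in shGRHL2 and 30.5 ± 2.70 in shLuc, a difference of -0.06, with overlapping runs. TWIST2 differed by 0.82, and by 1.01 with the mitochondrial ribosomal RNAs left out of the scaling. The direction was not shared by SNAI2 (Slug), at 3.995 ± 0.28 FPKM in shGRHL2 and 9.39 ± 0.80 in shLuc. Its difference of -1.06 was just past the limit, and it was -0.97 with the medians of the libraries set equal and -0.95 with the mitochondrial ribosomal RNAs left out, both within it. Whether any of these factors had a part in the CDH1 or CDH3 values was not tested.

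Of 11 genes commonly induced by nuclear β-catenin with TCF/LEF, 5 were tested and 1 was higher, with a median difference of -0.10. This was AXIN2, a negative regulator of Wnt signalling, at 3.62 ± 0.49 FPKM in shGRHL2 and 0.768 ± 0.14 in shLuc, tested only through shGRHL2. RNF43, a ubiquitin ligase that removes Wnt receptors and was tested only through shLuc, went the other way, at 0.0625 ± 0.038 FPKM in shGRHL2 and 1.05 ± 0.12 in shLuc. As a ratio of FPKM it was 16.8-fold lower (counting interval 8.80 to 33.0), yet its difference of -0.95 on the log2(FPKM + 1) scale was within the limit. LEF1, NKD1 and APCDD1 were listed at 0 in all runs. The other genes not tested were LGR5, NOTUM and SP5, with means below 1 FPKM in both libraries. LGR5 averaged 0.5675 FPKM in shGRHL2 and 0.0075 in shLuc, a ratio of 75.7 (counting interval 8.79 to 2054). NOTUM averaged 0.6325 FPKM in shGRHL2 and 0.2225 in shLuc, a ratio of 2.84 (counting interval 1.67 to 5.23). SP5 averaged 0.22 FPKM in shGRHL2 and 0.21 in shLuc. TCF7, a partner of β-catenin and a target of the pathway, averaged 6.29 FPKM in shGRHL2 and 6.81 in shLuc. DKK1, with the highest mean of the list, had 144 ± 3.37 FPKM in shGRHL2 and 135 ± 8.84 in shLuc. ZNRF3 averaged 1.445 ± 0.060 FPKM in shGRHL2 and 2.39 ± 0.17 in shLuc, a difference of -0.47. These 3 were within the limit.

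Markers of the cell types that could carry these cadherins were read beside them. The epithelial markers of ovarian carcinoma were all expressed in at least 1 library, and 5 of 7 were lower in shGRHL2. EPCAM, an epithelial adhesion protein, averaged 24.3 FPKM in shGRHL2 and 203 in shLuc, whereas PAX8, a lineage factor of ovarian carcinoma, averaged 122 in shGRHL2 and 69.8 in shLuc. Keratins KRT8 and KRT18 averaged 486 and 538 FPKM in shGRHL2, against 1294 and 1549 in shLuc. The mucins MUC16 and MUC1 averaged 0.423 and 1.17 FPKM in shGRHL2, against 9.31 and 6.29 in shLuc. The 7 summed to 1654 to 1708 FPKM in shGRHL2 and 4075 to 4144 in shLuc. Of 8 fibroblast markers only COL1A1 was tested, at 3.64 FPKM in shGRHL2 and 1.19 in shLuc, and DCN was at 0 in all runs. The fibroblast sum ran from 3.61 to 5.32 FPKM in shGRHL2 and from 1.19 to 3.07 in shLuc. Of 5 mesothelial markers 3 were tested, with BNC1 higher (1.28 FPKM in shGRHL2, listed at 0 in shLuc) and UPK3B lower (2.48 FPKM in shGRHL2 and 7.39 in shLuc). MSLN was within the limit, at 34.3 FPKM in shGRHL2 and 22.4 in shLuc, and WT1 was at 0 in all runs. The 5 summed to 34.9 to 40.6 FPKM in shGRHL2 and 27.2 to 34.6 in shLuc, and most of both sums was MSLN. Of 5 leukocyte markers 2 were tested, LAPTM5 and CD68. LAPTM5 was higher, at 6.39 FPKM in shGRHL2 and 1.76 in shLuc. CD68, tested only through shGRHL2, averaged 2.74 FPKM in shGRHL2 and 0.88 in shLuc, a difference of 0.99, just within the limit. PTPRC, not tested, averaged 0.495 FPKM in shGRHL2 and 0.5025 in shLuc, and CD3E was at 0 in all runs. The 5 summed to 9.25 to 10.3 FPKM in shGRHL2 and 2.56 to 4.2 in shLuc. The part of other cell types in the cadherin values was not tested beyond these levels.

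Over the 10 genes the order of FPKM in shGRHL2 was CTNNA1, CTNNB1, CTNND1, CDH2, CDH13, CDH4, CDH6, CDH3, CDH1 and CDH11. The runs of CDH13 and CDH4 overlapped, as did those of CDH6 and CDH3, and the other neighbours were apart. In shLuc the order was CTNNA1, CTNNB1, CDH3, CTNND1, CDH1, CDH4 and CDH2, followed by CDH13, CDH6 and CDH11, whose runs overlapped at or near 0.

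The tested genes nearest to CDH1 and to CDH2 in their pair of library means were found by distance on the log2(FPKM + 1) scale over the 2 libraries. Nearest to CDH1 were MUC20, a membrane mucin, at 0.45 FPKM in shGRHL2 and 42.9 in shLuc (distance 0.26), LAD1 (ladinin, of the basement membrane zone) at 0.01 FPKM in shGRHL2 and 51.2 in shLuc (distance 0.38), and PROM2 (prominin-2) at 0.518 FPKM in shGRHL2 and 38.3 in shLuc (distance 0.44). Nearest to CDH2 were COL5A1, a fibrillar collagen chain, at 21.7 FPKM in shGRHL2 and 0.558 in shLuc (distance 0.29), NREP at 31.3 FPKM in shGRHL2 and 0.475 in shLuc (distance 0.31), and FAM20C, a kinase of secreted proteins, at 22.7 FPKM in shGRHL2 and 0.09 in shLuc (distance 0.34).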

How the data were processed

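RNA of 8 samples (4 each of OVCA429 shGRHL2 and shLuc) was made into stranded total RNA libraries and read from both fragment ends. The deposited values are gene-level FPKM, which the authors made with bcl2fastq 2.17.1.14, STAR 2.4.2a on hg19 and RSEM 1.2.25 with Gencode v19. RSEM divides ambiguous fragments among transcripts, so single-gene values rest partly on that division. The study's test, EBSeq, needs counts and was not used.

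The 4 samples of a line were averaged as runs of 1 library, so no test was made. Differences are of mean log2(FPKM + 1), shGRHL2 minus shLuc. The pseudocount of 1 understates the change of low genes. Genes with a mean of 1 FPKM or more in at least 1 library were kept. Of 57820 genes, 27714 were at 0 throughout. Fragment numbers came from the spacing of low FPKM values (87.5% to 89.0% whole within 0.1 fragment) and the deposited effective lengths. Coordinates are from Gencode v44 lifted to GRCh37. The genes named are the 10 chosen, all list genes past 2-fold, the most abundant gene of a list with none, GRHL2 and the 3 nearest genes of CDH1 and CDH2. CDH15, CDH24, PKP4, TWIST2, TCF7, RNF43, LGR5, NOTUM, SP5, FAT4, ERG, VWF, PAX8, MSLN and genes at 0 were named after their values were seen. The same holds for CD68, PTPRC, CLDN5, TCF3, DKK1 and ZNRF3. Genes and lists were chosen with earlier results of these data known. PECAM1 did not have exactly 1 row and was left out. Scripts, tested on simulated data, ran in Python 3.11.15 with numpy 2.4.6, pandas 2.3.3 and scipy 1.17.1. Alternatives were another pseudocount, other filters and scalings, and each run left out.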

Additional observations from a re-analysis of the deposited data

Results flagged for a closer look

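In 3 of 38 groups of 4 runs checked, 1 run lay far from the others by Dixon's test at the 95% level, which chance gives in about 1 of 20 groups. GRHL2 was at 1.17 FPKM in the third shGRHL2 run, against 0.1 to 0.15 in the other shGRHL2 runs. CDH13 was at 0.24 FPKM in the fourth shLuc run and listed at 0 in the other shLuc runs. The same value gave CDH13 a share of 0.1705% of the 7-cadherin FPKM in that run and 0 in the others. With all other runs at 0, any value above 0 was bound to be flagged. The rate of 1 in 20 therefore does not apply to the CDH13 flags.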

How the results depend on the processing

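No paired analysis was possible because each line counted as 1 library and its 4 runs carry no pairing between cultures. The number of the 10 genes past the limit was 5 with any run left out and under every other scaling and the other pseudocount, and 4 with a minimum of 5 FPKM, where CDH6 was no longer tested. Over all genes, 1324 were higher and 1663 lower with a pseudocount of 0.1, and 464 were higher with a minimum of 5 FPKM. Without single runs 757 to 787 were higher and 1100 to 1132 lower. The cadherin total, 3.24-fold lower, was 2.998-fold lower with equal medians, 3.49-fold with TPM, 2.90-fold without the mitochondrial ribosomal RNAs, 2.44-fold over all CDH genes and 3.18-fold to 3.30-fold without single runs. The CDH1 share was 0.530% in shGRHL2 over all CDH genes and 0.628% to 0.769% without single runs. In shLuc it was 44.8% of estimated fragments, which weight longer transcripts more, and 35.3% to 36.1% without single runs. The cadherin to β-catenin ratio in shGRHL2 was 0.467 over all CDH genes, an alternative chosen after seeing the data, and 0.344 to 0.356 without single runs, against 1.33 to 1.36 in shLuc. Of 108 alternative differences of single genes, 98 stayed within the spread between runs or kept their call and 10 moved, all of CDH4 or the catenins under other scalings, and 0 changed direction. The cause of these shifts was not tested. The 1 library per line and 1 hairpin limit every statement to these libraries. Values near 0, such as CDH13 in shLuc, rest on a few fragments.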
